A study of Mus musculus with 16 samples.

Results

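The 5 enzymes described here break down activated fatty acids (acyl-CoAs): Acadvl and Acad12 in mitochondria, and Acaa1a, Acox2 and Acot8 in peroxisomes. They were taken by gene name from the deposited table, in which they are 5 of 2438 genes. That table held only genes that the authors had called different between these same libraries, so a lower or higher call in it is a condition for being described and not a finding. The libraries came from the duodenal epithelium of mice with an intestinal epithelial deletion of Ephb4 (KO, 7 libraries) and of mice whose Ephb4 alleles were only flanked by recombination sites (EphB4 flox/flox, called flox here, 9 libraries). Both groups were 8 weeks old when a high fat diet began and stayed on it for 19 weeks, so no group on another diet enters any value below. The study asked what losing EphB4, an ephrin receptor tyrosine kinase, in intestinal epithelial cells does in obesity. The design text calls the sample tissue of the proximal small intestine, and the sources used here give neither the recombinase line nor the strain and sex.

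Beta-oxidation shortens an acyl-CoA from its carboxyl end in a repeating cycle of dehydrogenation, hydration, a second dehydrogenation and thiolytic cleavage. Mitochondria run the cycle on most dietary fatty acids with acyl-CoA dehydrogenases that pass electrons to the respiratory chain, whereas peroxisomes start it with acyl-CoA oxidases that make hydrogen peroxide and handle very long, branched and bile acid precursor chains. Enterocytes of the upper small intestine absorb dietary fat, and although they re-esterify most of it into triglyceride, they also oxidise a share.

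Several libraries stood apart. Ephb4 had a lowest, median and highest normalised count of 23.3, 28.5 and 84.7 in KO libraries, against 103, 162 and 354 in flox libraries, and the groups did not overlap. Its mean was 5.76-fold lower in KO (two-sided exact permutation p = 8.74e-05 over 11440 splits, the smallest p that this design allows). Of 33 exocrine pancreas genes 24 were listed, and they summed to between 7570 and 151472 normalised counts in 5 flox libraries (replicates 4, 6, 7, 9 and 10), against at most 1837 in any KO library and at most 520 in the other 4 flox libraries. A score over 12 listed lymphocyte, mast cell and stromal genes had a lowest, median and highest value of -0.47, 0.87 and 1.32 in KO libraries and of -1.13, -0.49 and 0.31 in flox libraries, in units of standard deviations. Only listed genes could enter the score, and all 12 were listed as higher in KO, so its higher level in KO was fixed by that choice. The score drew on 6 of 24 lymphocyte genes (sum of 719 to 2258 normalised counts in KO, 635 to 1668 in flox), 2 of 8 mast cell genes (44.2 to 163 in KO, 17.2 to 58.3 in flox) and 4 of 22 stromal and endothelial genes (166 to 1310 in KO, 97.9 to 434 in flox), while 0 of 11 myeloid genes were listed. KO replicate 2 had the lowest score of its group and flox replicate 2 the highest of its own. The sample was labelled epithelium, and of 7 epithelial marker genes only Cdx2 and Cldn7 were listed, both as lower in KO, of which 1 passed limma. After the GC trend was removed 0 of the 2 had a negative difference, and under quantile normalisation 1 did.

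Promoter letters are shown for Acadvl, Acad12 and Acot8, which are 3 of the 4 enzymes that varied together between libraries, as described further on. For Acaa1a, also among those 4, only the motifs are given. Whether promoter letters bear on that variation was not tested. The stretches lie just before the RefSeq transcription start (build GRCm38.p6, all on the minus strand, at chr11:70015429-70015678, chr5:121618939-121619188 and chr2:164804883-164805097) and are written 5′ to 3′ along the gene, with motifs in capitals: the half-site AGGTCA bound by nuclear receptors in Acadvl, and a GC box (GGGCGG, here on the other strand as CCGCCC) and 3 CCAAT boxes in Acot8.
Acadvl: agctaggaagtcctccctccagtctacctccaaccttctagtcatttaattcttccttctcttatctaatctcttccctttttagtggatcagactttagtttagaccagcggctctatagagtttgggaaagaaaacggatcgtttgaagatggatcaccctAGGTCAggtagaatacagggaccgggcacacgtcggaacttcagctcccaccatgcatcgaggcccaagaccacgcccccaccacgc
Acad12: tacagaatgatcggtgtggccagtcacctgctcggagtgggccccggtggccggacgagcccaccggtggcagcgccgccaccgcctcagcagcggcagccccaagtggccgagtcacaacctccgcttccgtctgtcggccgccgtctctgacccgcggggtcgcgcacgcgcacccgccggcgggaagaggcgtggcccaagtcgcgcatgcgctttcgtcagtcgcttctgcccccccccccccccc
Acot8: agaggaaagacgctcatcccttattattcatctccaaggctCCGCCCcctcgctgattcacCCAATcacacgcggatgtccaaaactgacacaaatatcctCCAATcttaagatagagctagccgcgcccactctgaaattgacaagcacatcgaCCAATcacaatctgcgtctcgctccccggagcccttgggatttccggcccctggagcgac

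All 5 enzymes matched RefSeq promoters, with 6 windows between them that ran from 250 bases before to 50 bases after the start. Both strands were searched. In the Acadvl promoter AGGTCA began at position -87 from the start, and 1 of the 5 enzymes had this half-site, against 16.3% of 32851 mouse promoters of the same length. None of the 5 held an exact direct repeat of the half-site with 1 base between the copies, the layout read by PPAR and RXR dimers. Of all promoters, 0.0396% held such a repeat. Repeats with altered letters or outside the windows were not sought. The Acot8 promoter held its GC box at position -175 and its CCAAT boxes at positions -155, -115 and -61. Acaa1a held 3 GC boxes and 4 CCAAT boxes, and Acox2 held 1 CCAAT box, so GC boxes were found in 2 and CCAAT boxes in 3 of the 5 enzymes, against 35.7% and 37.4% of all promoters. The Acad12 stretch, 73.2% G and C, held none of the motifs searched, which also included CACGTG (7.15% of all promoters) and TATAAA (13.6%). A match is a run of letters and does not show that a factor binds.

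Both mitochondrial enzymes were lower in KO libraries than in flox libraries. Acadvl (chromosome 11, 70010183 to 70015411, minus strand, ENSMUSG00000018574) encodes the inner-membrane dehydrogenase for very long acyl chains, which takes the first step on long fatty acids. It had a lowest, median and highest normalised count of 1606, 1731 and 2118 in KO libraries, against 2067, 2488 and 2702 in flox libraries. The groups met only at KO replicate 2 and flox replicate 2, and 6 of 7 KO libraries lay below every flox library. The mean was 1772 ± 167 in KO (SD, n = 7) and 2484 ± 204 in flox (SD, n = 9), which is 1.40-fold lower in KO. On the log2(normalised count + 1) scale the difference was -0.49 ± 0.07 (SE, 95% interval -0.64 to -0.34, limma with Benjamini-Hochberg adjustment, adjusted p = 0.00153).

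Acad12 (chromosome 5, 121596775 to 121618938, minus strand, ENSMUSG00000042647) encodes a less studied acyl-CoA dehydrogenase family member close in sequence to Acad10. It had a lowest, median and highest normalised count of 182, 228 and 266.0 in KO libraries, against 265.1, 322 and 503 in flox libraries. KO replicate 2 and flox replicate 2 were again the libraries that met, within 1 normalised count, and the other 6 KO libraries lay below all 9 flox libraries. Its mean was 226.3 ± 27.8 in KO and 356 ± 78.1 in flox, 1.57-fold lower in KO, with a log2 difference of -0.63 ± 0.12 (SE, limma adjusted p = 0.0101). Acad12 and Acad10 transcripts were 96.2% identical over an aligned stretch of 1590 bases, so how reads were shared between them is uncertain. Acad12 lies on the same chromosome as Ephb4, at a distance of 15731171 bases.

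The 3 peroxisomal enzymes were lower in KO libraries as well. Acaa1a (chromosome 9, 119339676 to 119350299, plus strand, ENSMUSG00000036138) encodes a peroxisomal 3-ketoacyl-CoA thiolase, the last enzyme of the peroxisomal cycle. It had a lowest, median and highest normalised count of 5157, 6291 and 6928 in KO libraries, against 6382, 9392 and 12868 in flox libraries. Here the overlap was wider: 4 of 7 KO libraries lay below all flox libraries, and flox replicates 1 and 2, at 6478 and 6382, lay within the KO range. The mean was 6196 ± 689 in KO and 9206 ± 1957 in flox, 1.49-fold lower in KO, with a log2 difference of -0.55 ± 0.12 (SE, limma adjusted p = 0.0159). The Acaa1a transcript was 96.6% identical to that of its neighbour Acaa1b over 1428 bases, so the split of reads between the pair is uncertain. Acaa1b was also lower, at 950 ± 158 in KO and 1608 ± 606 in flox normalised counts (limma adjusted p = 0.038).

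Acox2 (chromosome 14, 8225511 to 8259353, minus strand, ENSMUSG00000021751) encodes an acyl-CoA oxidase that acts on the side chains of bile acid precursors and takes the first, peroxide-forming step. It had the largest fold of the 5 and the highest coefficient of variation among KO libraries. Its lowest, median and highest normalised count was 219, 357 and 699 in KO libraries, against 584, 780 and 999 in flox libraries, and 5 of 7 KO libraries lay below all flox libraries. KO replicates 5 and 8, at 597 and 699, were the KO libraries within the flox range, and KO replicate 2 was the lowest. The mean was 406 ± 189 in KO and 801 ± 147 in flox, 1.97-fold lower in KO, with a log2 difference of -1.09 ± 0.22 (SE, limma adjusted p = 0.0108). The coefficient of variation was 46.6% among KO libraries and 18.3% among flox libraries, whereas the other 4 enzymes had between 9.40% and 12.8% among KO libraries and between 6.82% and 21.9% among flox libraries.

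Acot8 (chromosome 2, 164792765 to 164804882, minus strand, ENSMUSG00000017307) encodes a peroxisomal thioesterase that splits acyl-CoAs into free acid and coenzyme A, which lets chain-shortened products leave the peroxisome. It had a lowest, median and highest normalised count of 507, 613 and 711 in KO libraries, against 701, 783 and 886 in flox libraries. KO replicate 2 was the 1 KO library above the lowest flox library, replicate 9. The mean was 592 ± 75.7 in KO and 776 ± 53.0 in flox, 1.31-fold lower in KO and the smallest fold of the 5, with a log2 difference of -0.40 ± 0.08 (SE, limma adjusted p = 0.00919).

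**Figure D1:**
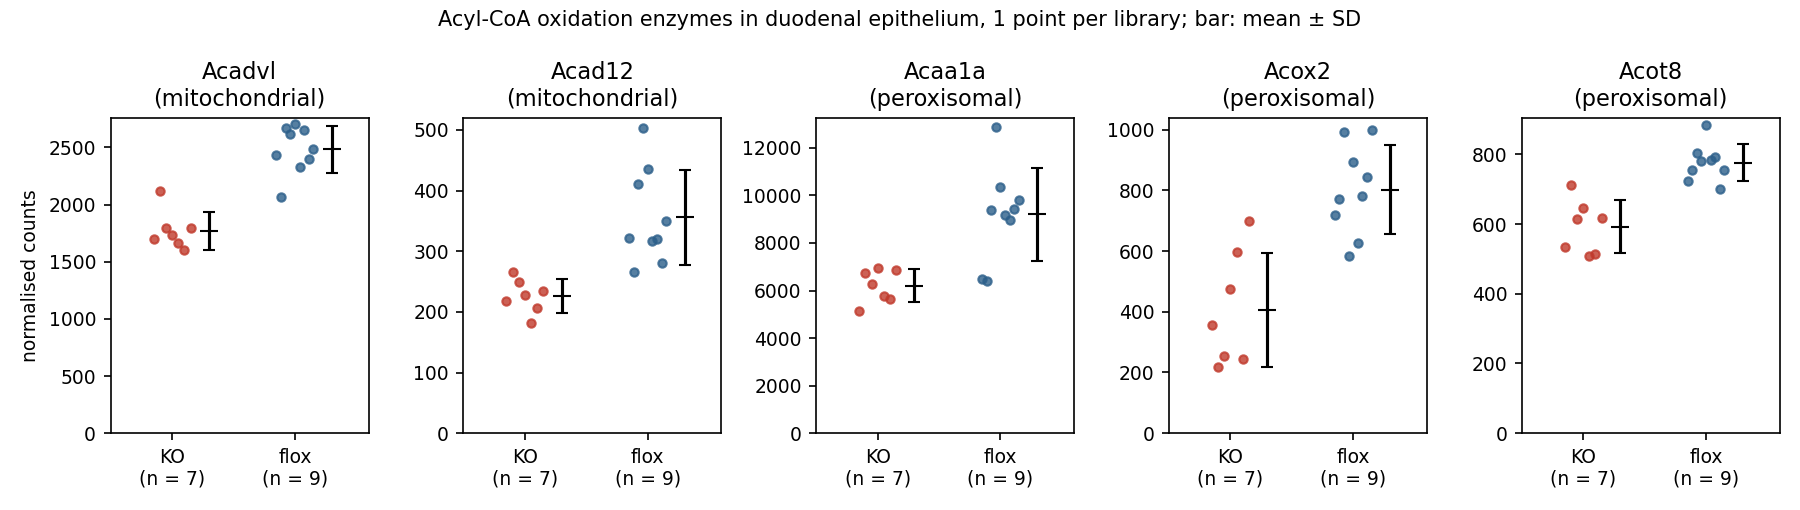
Normalised counts of the 5 enzymes (vertical axes, from 0) in each KO library (red, n = 7) and each flox library (blue, n = 9), with the mean ± SD beside the points. KO means sit 1.31-fold to 1.97-fold below flox means, the ranges of the groups overlap for each enzyme, and Acox2 spreads over 219 to 699 among KO libraries.

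All 5 enzymes were lower in the authors' deposited table, where 7.81% of the 16488 genes adjusted over were called lower, and all 5 were lower past limma's adjusted threshold of 0.05, as were 4.97% of those 16488 genes and 35.1% of the 2339 listed genes that entered the fit. Since listing was a condition for being described, nothing is read from these counts. None of the 5 had groups free of overlap, against 7.26% of the listed genes. The log2 fold changes of KO over flox in the authors' deposited table were -0.49 for Acadvl, -0.65 for Acad12, -0.57 for Acaa1a, -0.98 for Acox2 and -0.39 for Acot8. The next shares rest on limma's log2 differences over the 1278 lower listed genes that entered the fit. Of these, 3.91% fell further than Acox2, 11.5% further than Acad12, 15.7% further than Acaa1a, 22.7% further than Acadvl and 40.7% further than Acot8. Lower calls were also usual at these levels: of the 768 listed genes that averaged 1000 normalised counts or more, which include Acadvl and Acaa1a, 712 were lower, and of the 679 between 200 and 1000, which include the other 3 enzymes, 448 were lower.

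The calls did not hold under every fit. With that non-epithelial score entered as covariate, the log2 differences of the enzymes lay between -1.46 and -0.24 and 0 of 5 passed. Since the score's genes were chosen as higher in KO, the score and the genotype cannot be told apart in that fit. Without the 5 flox libraries that held pancreatic transcripts they lay between -1.18 and -0.37, and 0 of 5 passed with 7 KO and 4 flox libraries (adjusted p between 0.070 and 0.296). The log2 differences of all 5 were negative in both fits. Of the 5, 4 passed with trimmed mean (TMM) scaling, 2 after each library's GC trend was removed and 1, Acad12, with quantile normalisation. These adjustments were estimated over listed genes only, all called different, so the effect of that choice on the lost calls cannot be separated. All 5 passed with edgeR and with DESeq2. In bulk RNA, fewer cells of a type and less RNA per cell cannot be told apart.

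**Figure D2:**
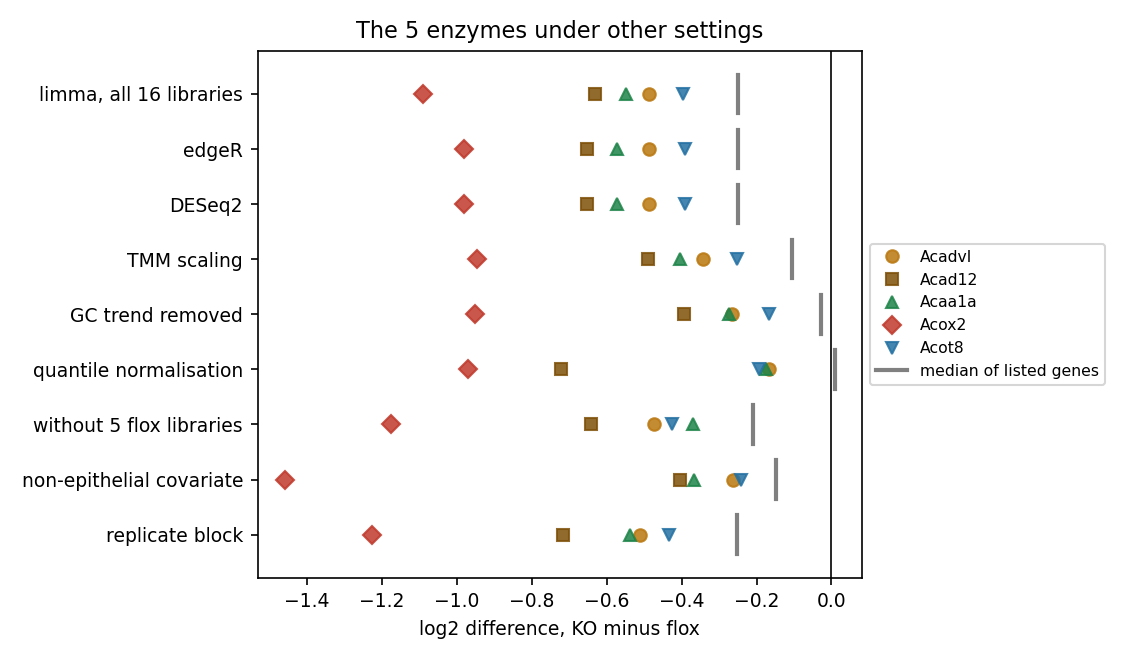
Log2 difference of KO minus flox (horizontal axis) for each enzyme under limma on all 16 libraries and 8 other settings (rows), with the median over the listed genes as a grey tick. Every point lies below 0, Acox2 is the lowest in each row, and the median of the listed genes is -0.25 in the top row and 0.01 under quantile normalisation.

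Per kilobase of the deposited gene length, the order of levels was Acaa1a, Acadvl, Acot8, Acox2 and Acad12, from highest to lowest, in both groups. That length exceeds the longest coding transcript for Acaa1a (4414 against 1762 bases) and Acad12 (6516 against 3881 bases), so the values depend on it. Acaa1a had 1404 ± 156 normalised counts per kilobase in KO and 2086 ± 443 in flox, and Acadvl had 660 ± 62.0 in KO and 925 ± 76.0 in flox. Acot8 had 297 ± 37.9 per kilobase in KO and 389 ± 26.5 in flox, and Acox2 had 110 ± 51.0 in KO and 216 ± 39.6 in flox. Acad12 was the lowest, at 34.7 ± 4.27 per kilobase in KO and 54.6 ± 12.0 in flox. Neighbours in this order lay further apart than their SDs in each group.

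The gap between the mitochondrial and the peroxisomal enzymes differed between groups by less than the spread between libraries. Within each library, the mean log2 level of the 3 peroxisomal enzymes minus that of the 2 mitochondrial ones was 0.81 ± 0.29 in KO and 0.93 ± 0.15 in flox, a difference of -0.12 beside a pooled SD of 0.22. The values ran between 0.44 and 1.14 in KO libraries and between 0.65 and 1.11 in flox libraries. The sign rested on Acox2: without it the balance was 1.59 ± 0.10 in KO and 1.51 ± 0.12 in flox, a difference of 0.09. Relative to Acadvl of the same library, the log2 ratio of Acox2 was -2.25 ± 0.72 in KO and -1.65 ± 0.27 in flox, a difference of -0.60, and 4 of 7 KO libraries lay below all flox libraries. Ratios to Acadvl differed by -0.14 for Acad12, -0.06 for Acaa1a and 0.09 for Acot8, each less than its pooled SD.

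Acox2 also varied apart from the other enzymes inside the groups. Pearson's r of the deviations from the group means over the 16 libraries, given as a description, was 0.75 between Acadvl and Acad12, 0.70 between Acadvl and Acot8, 0.61 between Acadvl and Acaa1a, and 0.72 between Acad12 and Acaa1a. It was 0.63 between Acad12 and Acot8 and 0.48 between Acaa1a and Acot8. For Acox2 it lay between -0.22 with Acad12 and 0.03 with Acaa1a. KO replicate 2 shows the split, since it was the highest KO library for Acadvl, Acad12 and Acot8 and the lowest for Acox2. All 16 points share the same libraries and size factors.

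Absorptive enterocyte markers were lower in KO too, except under quantile normalisation, which was estimated over listed genes only. Of 16 such markers, 8 were listed (Fabp1, Fabp2, Rbp2, Dgat1, Vil1, Lct, Apoa1 and Krt20), all lower, against 7.81% of the 16488 genes. Over these 8, which were already selected as different, the mean log2 level was 15.65 ± 0.19 in KO and 16.14 ± 0.15 in flox, a difference of -0.50. In the limma fit on all 16 libraries 6 of the 8 passed, with TMM scaling 2, and 0 in the covariate fit and in the fit on 4 flox libraries. Under quantile normalisation 3 of the 8 had negative differences, with a median of 0.01. Enzymes and markers alike had been listed as lower, so ratios between them are drawn toward no difference by that choice. Markers that were not listed could not enter. Relative to these markers in the same library, the enzymes' log2 levels differed by 0.01 for Acadvl, -0.05 for Acaa1a, 0.10 for Acot8 and -0.13 for Acad12, each less than its pooled SD. Acox2 relative to the markers was -7.11 ± 0.61 in KO and -6.52 ± 0.23 in flox, a difference of -0.59 against a pooled SD of 0.44, with 3 of 7 KO libraries below all flox libraries. Proliferation genes went the other way, with 17 of 25 listed, all higher, against 6.97% of the 16488 genes, and a sum of 2863 to 6323 normalised counts in KO libraries and 1159 to 3793 in flox libraries. In the fit on all libraries 11 of the 17 passed, and 0 did in the covariate fit or in the fit on 4 flox libraries. The part of this shift in the enzymes' differences was not tested.

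**Figure D3:**
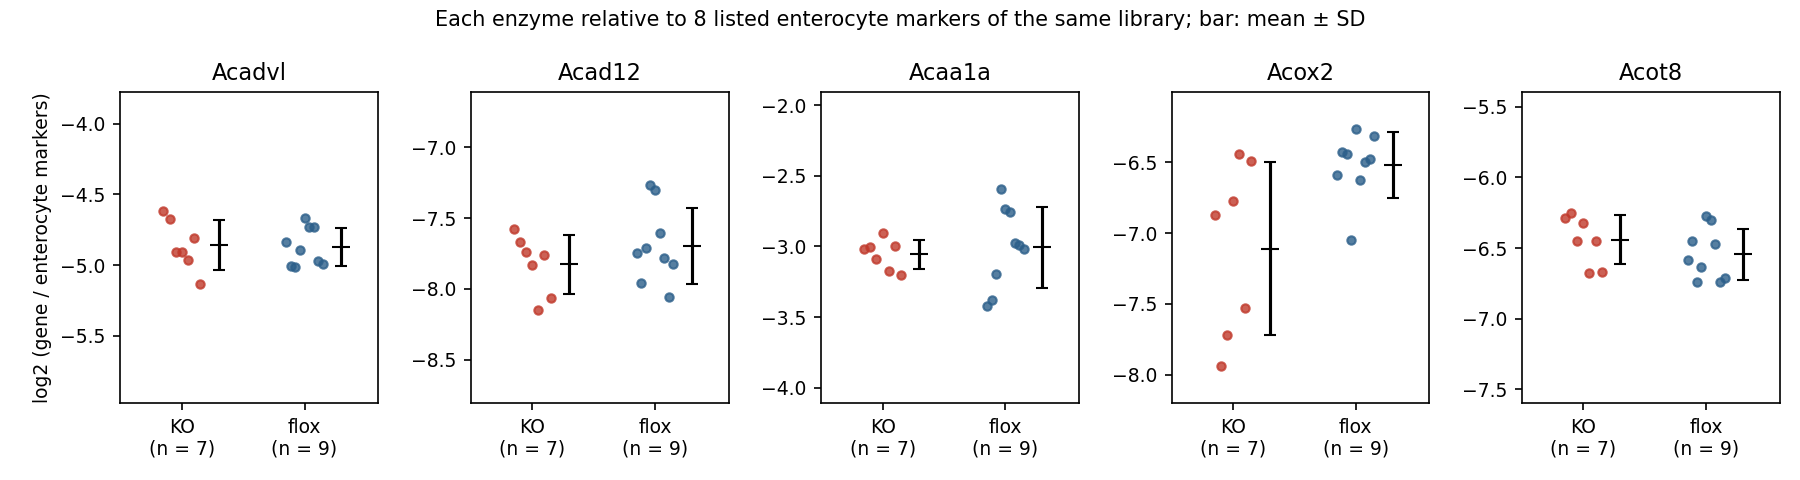
Log2 ratio of each enzyme to the mean of 8 listed enterocyte markers of the same library (vertical axes, equal spans) in KO (red, n = 7) and flox (blue, n = 9), with the mean ± SD beside the points. Acadvl, Acad12, Acaa1a and Acot8 have mean differences between -0.13 and 0.10, and Acox2 has one of -0.59 with 3 KO libraries below all flox libraries. Enzymes and markers were all listed as lower, which draws the ratios toward no difference.

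Of the 5 enzymes, Acadvl followed the non-epithelial score most closely. Taken as deviations from the group means, Acadvl and the score had Pearson's r of -0.79 (permutation p within groups = 0.00088, adjusted over 5 relations 0.00440) and Spearman's rho of -0.73 (permutation p = 0.00191, adjusted 0.00955) over 16 libraries. Within the groups, with every library kept, r was -0.81 in KO and -0.80 in flox. Without KO replicate 2 and flox replicate 2, the libraries farthest from the median, r over both groups was -0.54. For the other 4 enzymes neither coefficient passed: Pearson's r was -0.39 for Acad12 (permutation p = 0.106, adjusted 0.176), -0.31 for Acaa1a (permutation p = 0.198, adjusted 0.248), -0.49 for Acot8 (permutation p = 0.0998, adjusted 0.176) and 0.34 for Acox2 (permutation p = 0.315, adjusted 0.315). Their Spearman's rho was -0.41 for Acad12 (permutation p = 0.113, adjusted 0.282), -0.26 for Acaa1a (permutation p = 0.326, adjusted 0.408), -0.35 for Acot8 (permutation p = 0.223, adjusted 0.371) and 0.19 for Acox2 (permutation p = 0.515, adjusted 0.515). Without the same 2 libraries r was -0.12 for Acad12, -0.04 for Acaa1a, -0.27 for Acot8 and 0.16 for Acox2.

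**Figure D4:**
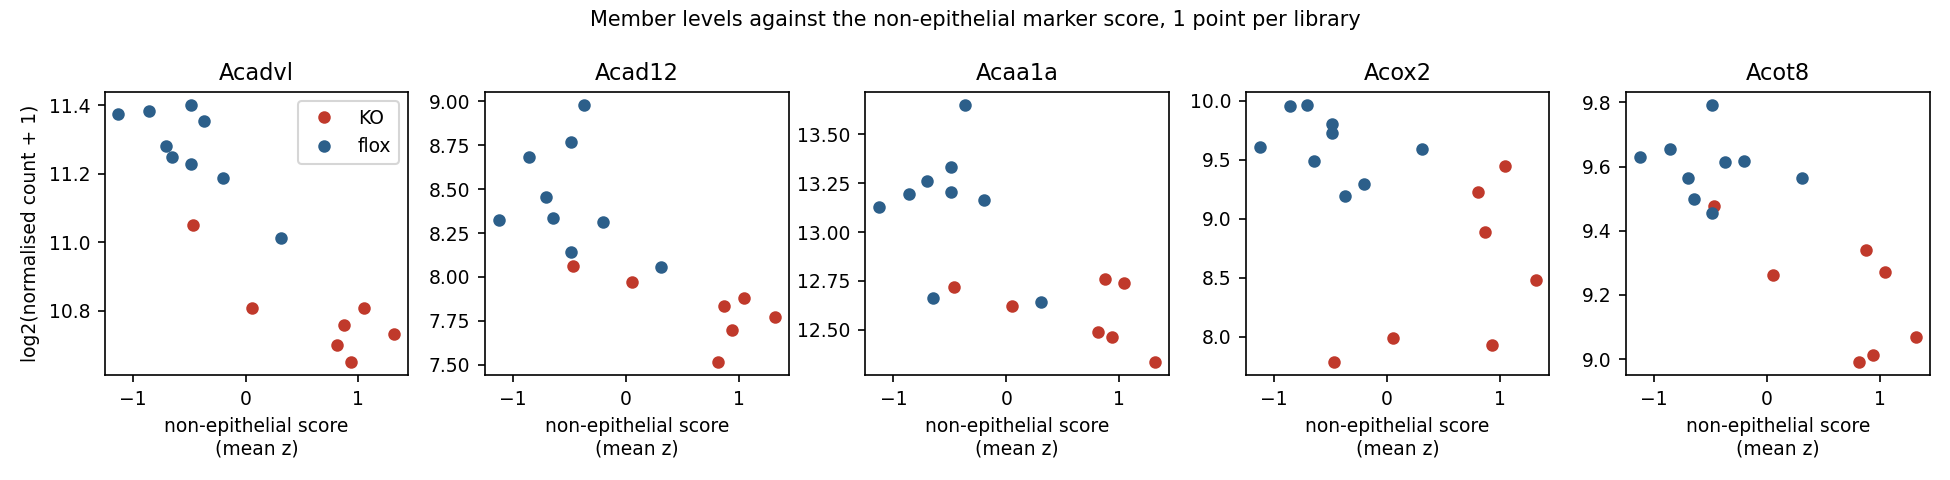
Log2(normalised count + 1) of each enzyme (vertical axes) against the non-epithelial score (horizontal axes, mean z over 12 genes) for KO libraries (red, n = 7) and flox libraries (blue, n = 9). Most KO libraries lie to the right of the flox libraries, and Acadvl falls with the score inside both groups (r of -0.81 in KO and -0.80 in flox).

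The genes whose deviations from the group means were most like each enzyme's were ranked among 1693 listed genes averaging 100 normalised counts or more, over 16 libraries. For Acadvl they were Bri3bp (r = 0.87), the superoxide dismutase gene Sod1 (0.84) and Pex5 (0.82), which encodes the receptor that brings enzymes into peroxisomes. Acad12 had Aspscr1 (r = 0.90), Pnpla6 (0.86) and Pheta1 (0.85). Acaa1a had the alanine aminotransferase gene Gpt (r = 0.97), Tmem160 (0.92) and the hormone gene Sct (0.91), which encodes secretin. Acox2 had Susd2 (r = 0.87), the nucleoside transporter gene Slc28a1 (0.81) and Man1a (0.80). Acot8 had another thioesterase gene, Acot11 (r = 0.75), Plpp2 (0.74) and the hormone gene Cck (0.73), which encodes cholecystokinin. The 5 enzymes themselves were left out of the ranking.

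The other listed genes of both pathways were also lower in KO. Of 24 mitochondrial beta-oxidation genes, 11 were listed (45.8%, Acadvl and Acad12 included), all 11 lower in KO, and 7 passed limma. Of 26 genes of peroxisomal acyl-CoA oxidation, 11 were listed (42.3%, with Acaa1a, Acox2 and Acot8), all 11 lower, and all 11 passed. Of 18 peroxisome biogenesis genes, 7 were listed (38.9%), all 7 lower, and 5 passed. Of all 16488 genes, 7.81% were listed as lower. In the authors' deposited table, the median log2 fold change over listed genes was -0.36, -0.39 and -0.44 for the 3 lists in that order. Over all 2438 listed genes it was -0.23, but those hold 1288 lower and 1150 higher genes. With limma on all libraries the 3 lists had medians of -0.35, -0.40 and -0.44. In the same fit, listed genes that were lower had a median of -0.36 both at 200 to 1000 and at 1000 or more normalised counts. With the non-epithelial score entered as covariate, and without the 5 flox libraries with pancreatic transcripts, 0 genes of each list passed. With TMM scaling 2 of each list passed. Under quantile normalisation 8 of the 11 mitochondrial, 9 of the 11 peroxisomal and 5 of the 7 biogenesis genes had negative differences, with medians of -0.07, -0.06 and -0.13 in that order.

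Among the mitochondrial genes, the carnitine-acylcarnitine carrier gene Slc25a20, which brings acyl groups across the inner membrane, was 1.32-fold lower in KO (limma adjusted p = 0.020). The short chain dehydrogenase gene Acads was 1.26-fold lower with no overlap between groups (adjusted p = 0.028), and the trifunctional protein subunit gene Hadha was 1.23-fold lower (adjusted p = 0.027). For Acads the highest KO library had 1324 normalised counts and the lowest flox library 1331. Of listed genes averaging 1000 normalised counts or more, 12.9% had groups free of overlap. Etfa, whose protein takes electrons from the acyl-CoA dehydrogenases, was 1.31-fold lower (adjusted p = 0.010), and Eci1, an enoyl-CoA isomerase gene, 1.24-fold lower (adjusted p = 0.032). Acadl, Acad11, Acaa2 and Etfb were listed but had limma adjusted p between 0.068 and 0.107. Etfb, which did not pass, had the largest fold of the list, at 1.83-fold, and Acad12 and Acadvl came next.

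Among the peroxisomal genes, the bifunctional enzyme gene Hsd17b4 was 1.31-fold lower in KO (limma adjusted p = 0.018), the thiolase and sterol carrier gene Scp2 1.27-fold lower (adjusted p = 0.041) and the catalase gene Cat, which removes hydrogen peroxide, 1.33-fold lower (adjusted p = 0.022). The acyl-CoA synthetase gene Slc27a2 (1.30-fold, adjusted p = 0.032) and the carnitine acetyltransferase gene Crat (1.31-fold, adjusted p = 0.017) were lower too. In this group of genes Acox2 had the largest fold and Acaa1b the next, at 1.69-fold. Of the biogenesis genes, Pex5 was 1.35-fold lower (adjusted p = 0.005), Pex6 1.45-fold, Pex11a 1.40-fold, Pex14 1.43-fold and Pex16 1.30-fold lower, while Pex2 and Pex19 had adjusted p of 0.058 and 0.084.

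**Figure D5:**
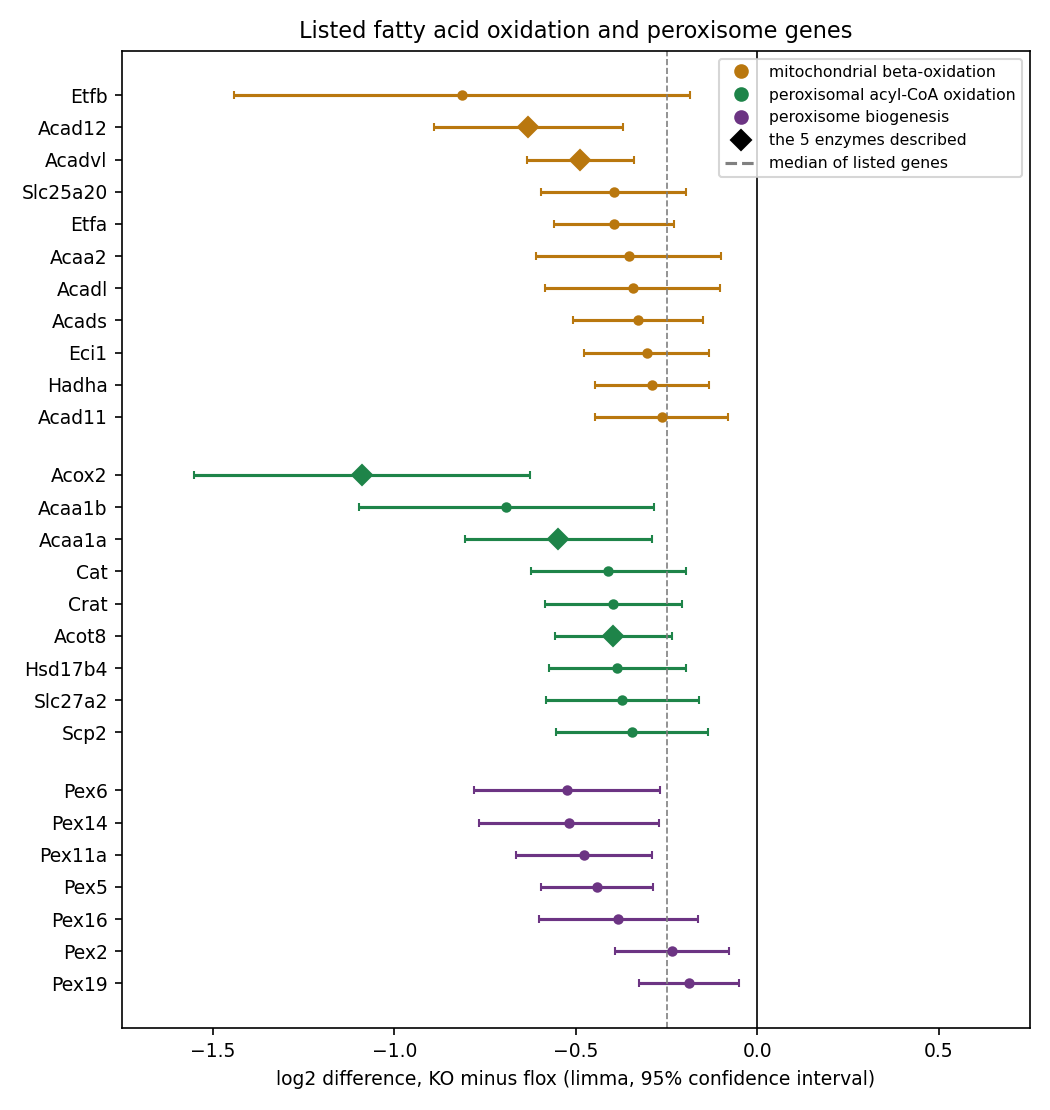
Log2 difference of KO minus flox with its 95% confidence interval (horizontal axis, limma) for 27 of the 29 listed genes of mitochondrial beta-oxidation, peroxisomal acyl-CoA oxidation and peroxisome biogenesis (rows), with diamonds for the 5 enzymes and a dashed line at the median of the listed genes, -0.25. The dashed line covers genes listed as lower and genes listed as higher. All 27 points lie below 0, and Acox2 is the lowest at -1.09.

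Smaller lists held few listed genes. Acot11 was the 1 listed gene of 8 other acyl-CoA thioesterases (1.34-fold lower in KO, limma adjusted p = 0.013). It passed with edgeR too. It did not pass with the covariate, without the 5 flox libraries, with TMM or quantile scaling, or without the GC trend. Of 9 regulators of fatty acid oxidation, 3 were listed and lower: Rxra, the dimer partner of PPAR receptors, 1.34-fold with no overlap between groups (adjusted p = 0.006), the nuclear receptor gene Esrra 1.57-fold (adjusted p = 0.018) and the transcription factor gene Creb3l3 1.38-fold (adjusted p = 0.018). Of listed genes averaging 1000 normalised counts or more, Rxra included, 12.9% had groups free of overlap. Of all 16488 genes, 7.81% were listed as lower, and 0 of the 3 regulators passed with the covariate, without the 5 flox libraries or under quantile normalisation. All 3 passed with TMM scaling and 1 after the GC trend was removed. Genes that were not listed were not analysed here.

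The libraries were made with a kit that does not mark strand, and some of the enzymes share bases with other genes in the GENCODE annotation. The Acaa1a locus overlapped Slc22a14 over 10624 bases and Myd88 over 1736 bases, Acadvl overlapped Dvl2 over 2119 bases and Mir324, and Acot8 overlapped Snx21 over 1052 bases. None of these partners was listed. Acad12 and Acox2 overlapped no other annotated gene.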

How the data were processed

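RNA from 7 KO and 9 flox samples of duodenal epithelium was sequenced, 1 library per sample. Whether each library is its own mouse is not stated, so p-values measure the spread between libraries. The submitters' processing notes name the GRCm38 build, the aligner HISAT2 (2.0.5), the counter featureCounts (1.5.0-p3) and DESeq2 (1.20.0). Per the labels' protocols, poly-T beads and the NEBNext Ultra RNA kit were used.

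The authors deposited normalised counts (a signal: reads divided by 1 size factor per library), log2 fold changes, p-values and adjusted p-values for 2438 genes. The largest deposited adjusted p was 0.0497, and the deposited p-values showed an adjustment over 16488 genes. Genes that were not listed were not analysed here. Whole reads were recovered from the deposited signal for 100% of nonzero values, within 0.0001 reads. Reads in listed genes numbered 3592468 to 4555872 in KO and 4237178 to 5316273 in flox libraries. Total depth is unknown.

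The main test was limma 3.58.1 (trend, robust) on log2(normalised count + 1) for genes with a mean of at least 10, which left 2339 genes. Benjamini-Hochberg adjustment ran over 16488 genes, those outside the fit being counted as not significant. Alternatives were pseudocounts of 0.5 and 10, no filter, and TMM and quantile scaling over listed genes. The recovered reads were fitted with edgeR 4.0.16 and DESeq2 1.42.0. Further fits used a non-epithelial covariate or a replicate block, or left out each library in turn. Other alternatives were added after the data were seen: leaving out the flox libraries with more pancreatic transcripts than any KO library, edgeR without KO replicates 1 and 3, whose recovered reads could not be checked independently, and removal of each library's GC trend. The limma, edgeR and DESeq2 fits were tested on simulated data. The members and lists were chosen with earlier results of these data known. The genes named by likeness were the 3 with the highest Pearson's r per enzyme. Pathway genes named were those of the lists that were listed, and a few of them are not reported here. Python 3.11.15 and R 4.3.3 were used.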

Additional observations from a re-analysis of the deposited data

Results flagged for a closer look

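Of 14 sets of values (the KO and the flox group of the 5 enzymes, of Ephb4 and of the peroxisomal minus mitochondrial mean), 2 held a library far from its group by Dixon's criterion, which flags about 1 in 20 by chance. Acadvl was 2118 normalised counts in KO replicate 2, above the other 6 KO libraries, which lay between 1606 and 1792. Ephb4 was 84.7 normalised counts in KO replicate 1, above the other 6 KO libraries, which lay between 23.3 and 37.3. Without KO replicate 1 or KO replicate 2, all 5 enzymes still passed limma's adjusted threshold. The cause of either value was not tested.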

How the results depend on the processing

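All 5 enzymes had negative log2 differences (KO minus flox) in the 12 other settings and in the 16 fits that left out 1 library. Leaving out each library gave log2 differences of -0.53 to -0.46 for Acadvl, -0.68 to -0.57 for Acad12, -0.61 to -0.48 for Acaa1a, -1.24 to -0.96 for Acox2, -0.44 to -0.36 for Acot8 and -2.73 to -2.40 for Ephb4, and 5 of 5 enzymes passed each time.

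Elsewhere calls were lost, and the cause was not tested. TMM scaling, quantile normalisation and the GC trend were estimated over listed genes only. TMM scaling kept 4 enzymes, with Acot8 at -0.25 (adjusted p = 0.052). Quantile normalisation kept 1, with Acadvl at -0.17, Acaa1a at -0.17, Acox2 at -0.97 and Acot8 at -0.19. The non-epithelial covariate kept 0, with Acadvl at -0.26, Acad12 at -0.40, Acaa1a at -0.37, Acox2 at -1.46 and Acot8 at -0.24, and 4 of 5 at an unadjusted p under 0.05. Without the 5 flox libraries with pancreatic transcripts (fewer samples) 0 passed, with Acadvl at -0.47, Acad12 at -0.64, Acaa1a at -0.37, Acox2 at -1.18 and Acot8 at -0.43, and 5 of 5 at an unadjusted p under 0.05. Removal of the GC trend kept 2, with Acad12 at -0.39, Acaa1a at -0.27 and Acot8 at -0.17. edgeR without KO replicates 1 and 3 kept 3, with Acaa1a at -0.53 and Acox2 at -0.84. edgeR and DESeq2 on all libraries kept 5 each.

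Whether the replicate numbers pair the libraries is not stated in the labels. Deviations of same-numbered libraries correlated at -0.43 to 0.37, with 3 of 6 over 0.1, and 1 of 6 correlated best with its own number. With the replicate block (6 shared numbers, fewer samples) 0 enzymes passed and 5 of 5 had an unadjusted p under 0.05, with Acadvl at -0.51, Acad12 at -0.72, Acaa1a at -0.54, Acox2 at -1.22, Acot8 at -0.43 and Ephb4 at -2.30.

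Of the listed genes, 1269 passed with limma on all libraries, 2112 with DESeq2, 355 with quantile normalisation, 7 with the covariate, 9 with the block, 11 without the pancreatic libraries, 271 without the GC trend, 354 with edgeR without KO replicates 1 and 3, and 518 to 1458 when 1 library was left out (645, 622 and 518 without KO replicate 1, 5 or 7, and 615, 838 and 646 without flox replicate 3, 4 or 10). TMM passed 912 (723 higher, 189 lower), against 449 higher and 820 lower with limma on all libraries. The median over the listed genes was -0.25 with limma on all libraries, -0.11 with TMM, 0.01 with quantile normalisation and -0.03 without the GC trend. Relative to it, the enzymes lay between -0.84 and -0.15 with limma on all libraries, between -0.98 and -0.17 with quantile normalisation and between -0.92 and -0.14 without the GC trend. With the covariate they lay between -1.31 and -0.09. That median spans genes listed as lower and genes listed as higher, so a gene listed as lower tends to lie below it. The peroxisomal minus mitochondrial difference was -0.35 with the covariate, -0.0018 with quantile normalisation, -0.0059 with edgeR without KO replicates 1 and 3, and -0.17 to -0.06 when 1 library was left out.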
